A study of Mus musculus with 48 samples.

Results

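The data described here are the RNA levels of the 6 lipolysis genes Pnpla2, Lipe, Mgll, Abhd5, G0s2 and Pnpla3, out of 55450 genes counted in each library. They were chosen by symbol, as enzymes and cofactors of triglyceride breakdown, and each symbol matched 1 gene in the preadipocyte table and in the mouse embryonic fibroblast (MEF) table. Fat is released from the lipid droplet of an adipocyte in a fixed order. Pnpla2 encodes ATGL, which removes the first fatty acid from a triglyceride. Lipe encodes HSL, which acts on the resulting diglyceride, and Mgll encodes the monoglyceride lipase that completes the release of fatty acids and glycerol. ATGL is controlled by partner proteins, since Abhd5 encodes the co-activator CGI-58 and G0s2 encodes an inhibitor that binds ATGL. Pnpla3 encodes adiponutrin, the closest relative of ATGL, whose transcript is known to follow feeding and lipid synthesis rather than fasting. Catecholamines start lipolysis through beta-adrenergic receptors, cyclic AMP and protein kinase A, while insulin restrains it by lowering cyclic AMP. In brown and beige adipocytes the released fatty acids are also the fuel for heat production.

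The study differentiated C57BL/6 preadipocytes from the inguinal white adipose tissue (iWAT) of adult mice, and MEFs from midgestation embryos, into adipocytes. Wild type (WT) cells were compared with double knockout (DKO) cells, labelled Hmgn1-/- and Hmgn2-/-, that lack the nucleosome-binding proteins HMGN1 and HMGN2. Both genotypes received the same induction medium, with insulin at 0.5 µg/ml, dexamethasone at 5 µM, the phosphodiesterase inhibitor IBMX at 0.5 mM, T3 at 1 nM and the PPARG agonist rosiglitazone at 1 µM, for 4 days (preadipocytes) or 8 days (MEFs), followed by insulin and T3 for 4 days. Preadipocytes were collected at days 0, 3, 6 and 9 and MEFs at days 0, 4, 8 and 12, with 3 libraries in each of the 16 groups and 48 in all. The protocol thus covers preadipocytes to day 8 and does not state the medium of the day 9 libraries. The knockout is carried by every cell of the culture and not by adipocytes alone, and the libraries are of whole cultures.

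Summed expected counts lay between 19809356 and 36006679 per library in preadipocytes and between 18962481 and 33083194 in MEFs. Levels are CPM, counts divided by the library total after TMM scaling over the 24 libraries of a cell type. Hmgn2, one of the targeted genes, was at 32.4 to 135 CPM in WT preadipocytes and 46 to 198 CPM in WT MEFs, and at 0 to 0.329 and 0 to 0.111 CPM in the DKO libraries. Hmgn1 transcripts were still counted in the DKO libraries, at 73.7 to 97.7 CPM in preadipocytes against 77 to 171 CPM in WT, and at 69.7 to 114 CPM in MEFs against 116 to 218 CPM in WT, so that its ranges over all days overlapped in preadipocytes. Within a day, the DKO preadipocytes lay below WT without overlap at days 0, 3 and 6 and overlapped at day 9. The paper's methods report that DKO cells lack transcripts of the deleted exons and the HMGN1 and HMGN2 proteins. Some libraries stood apart from their group in the 10 adipocyte markers (Adipoq, Plin1, Cidec, Lep, Retn, Slc2a4, Cfd, Fabp4, Pparg and Lpl). In MEFs at day 4 these summed to 5729.8, 1951 and 1846 CPM in WT replicates 1 to 3 and to 4479, 2664 and 7189 CPM in DKO, and at day 8 to 9138, 3701 and 8895 CPM in WT and 15444, 11962 and 4229 CPM in DKO. WT replicate 1 was thus the high library of the WT group at day 4, the DKO libraries of that day were spread with replicate 3 highest, and WT replicate 2 and DKO replicate 3 were the low libraries of their groups at day 8. The cultures also carried leukocyte transcripts, with the summed level of 7 macrophage and leukocyte markers at 6085 to 8792 CPM in undifferentiated MEFs, and none of the 7 was at 0 in every library of a group.

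In the mm10 annotation (GENCODE M21) Pnpla2 lies at chr7:141455198-141460743 on the plus strand, Lipe at chr7:25379527-25398710 on the minus strand, Mgll at chr6:88724412-88828360 on the plus strand, Abhd5 at chr9:122351608-122381524 on the plus strand, G0s2 at chr1:193272161-193273217 on the minus strand and Pnpla3 at chr15:84167837-84187236 on the plus strand. Pnpla2 overlaps no other annotated gene, whereas the other 5 each overlap at least 1 gene on the opposite strand (Lamb3 in the case of G0s2), and the strand setting of the counting is not given in the sources used here. Since the members rose together, the stretches upstream of ATGL, of its activator and its inhibitor, and of its relative Pnpla3 are given here. Sequences are from RefSeq (GRCm38.p6, the assembly of mm10), read 5′ to 3′ on the gene's strand, and end at the annotated start or before the gene's own first exon, with motif matches in capitals.
Pnpla2, chr7:141454938-141455187: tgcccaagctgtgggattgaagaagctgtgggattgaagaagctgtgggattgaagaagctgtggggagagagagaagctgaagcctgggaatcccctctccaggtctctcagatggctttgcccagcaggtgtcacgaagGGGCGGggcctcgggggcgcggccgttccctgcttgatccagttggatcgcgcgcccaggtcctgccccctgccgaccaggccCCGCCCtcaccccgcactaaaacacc
Abhd5, chr9:122351366-122351607: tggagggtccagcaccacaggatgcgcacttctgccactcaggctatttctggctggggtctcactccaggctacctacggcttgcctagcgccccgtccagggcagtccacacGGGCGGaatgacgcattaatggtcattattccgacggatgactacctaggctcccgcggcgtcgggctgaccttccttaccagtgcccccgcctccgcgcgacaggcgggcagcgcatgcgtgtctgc
G0s2, chr1:193273218-193273438: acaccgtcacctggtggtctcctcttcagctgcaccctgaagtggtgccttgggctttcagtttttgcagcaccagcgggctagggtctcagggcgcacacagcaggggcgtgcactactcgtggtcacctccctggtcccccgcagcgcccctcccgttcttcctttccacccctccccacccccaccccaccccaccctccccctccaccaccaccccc
Pnpla3, chr15:84167566-84167815: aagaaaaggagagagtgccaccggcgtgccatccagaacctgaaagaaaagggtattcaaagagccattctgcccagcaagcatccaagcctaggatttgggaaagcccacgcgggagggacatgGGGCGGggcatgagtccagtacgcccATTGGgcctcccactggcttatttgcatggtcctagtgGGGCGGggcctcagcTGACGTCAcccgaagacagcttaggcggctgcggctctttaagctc
All 6 members matched RefSeq by symbol, with 8 start sites between them, and 8 motifs were searched on both strands in the 250 bases before each start. GGGCGG, the GC box, was found before at least 1 start of each of the 6 genes (the G0s2 match lies past the stretch given above, in its annotated exon). Lipe and Mgll each had 2 starts, 1 of them without a match. Of all 32851 windows of this length 32.7% had a match, a share per window and not per gene. Lipe had 6 such matches before its first start, some overlapping one another. TGACGTCA, the cyclic AMP response element, was found before Pnpla3 (1.55% of all windows), and CACGTG, an E-box, before Lipe and Mgll (6.02%). CCAAT (33.8% of all windows) was found before Pnpla3. The direct repeat bound by PPARG with RXR, AGGTCA repeated after 1 base of any kind (0.0335% of all windows), TTGCNNAA, which C/EBP proteins bind (9.56%), TGAGTCA (4.46%) and TATAAA (12.4%) had no match before any of the 8 starts.

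The first question was how the members rose as preadipocytes became brown-like adipocytes. In WT preadipocytes the 3 lipase genes rose in each of the first 2 intervals and not in the last. Pnpla2 went from 16.7 ± 0.931 CPM (SD, n = 3, as for the means that follow) before induction to 117 ± 51.3, 1807 ± 273 and 1802 ± 134 CPM on days 3, 6 and 9. Lipe went from 6.54 ± 1.70 CPM to 63.7 ± 29.1, 873 ± 139 and 832 ± 55.8 CPM on the same days, and Mgll from 14.1 ± 6.24 to 78.7 ± 19.9, 324 ± 44.3 and 258 ± 5.85 CPM. Abhd5, the co-activator gene, went from 50.2 ± 0.371 CPM at day 0 to 516 ± 22.4 CPM at day 6 and 439 ± 1.70 CPM at day 9. The inhibitor gene G0s2 rose in the same intervals, from 4.98 ± 2.03 CPM to 24.5 ± 14.98, 241 ± 37.9 and 276 ± 18.2 CPM. Pnpla3 was late. It was counted with 0, 1 and 7 reads at day 0 and 9, 4 and 6 reads at day 3, and stood at 10.6 ± 1.61 CPM at day 6 and 27.97 ± 0.294 CPM at day 9.

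Between consecutive days, a gene was called when its Benjamini-Hochberg adjusted p in edgeR's quasi-likelihood test was under 0.05 and its fold change at least 1.5. From day 0 to day 3, 5 of 6 members rose in WT preadipocytes, where 11.1% of all tested genes were called higher, and all 6 rose in DKO preadipocytes, where 13% were. The exception in WT was Pnpla3 (log2 fold change 1.07 ± 0.72, adjusted p = 0.262), and its 7 reads in WT replicate 3 at day 0 decided this, since without that library it was called at 3.27 (adjusted p = 0.0059). From day 3 to day 6 all 6 members rose in both genotypes, beside 22.5% of all genes in WT and 23.7% in DKO. In WT the fold was highest for Pnpla3 (log2 fold change 5.41 ± 0.39, SE) and smaller for Pnpla2 (3.97 ± 0.30), Lipe (3.79 ± 0.34), G0s2 (3.31 ± 0.44), Mgll (2.07 ± 0.26) and Abhd5 (1.71 ± 0.15). This step spans the change from induction medium to insulin and T3 after 4 days, so time and medium cannot be told apart. In bulk cultures, more adipocytes and more RNA per adipocyte cannot be told apart. Markers of other cells moved over the same days. The 7 macrophage and leukocyte markers summed to 57.9, 215 and 65.4 CPM at day 3 and 5351, 8979 and 9031 CPM at day 6 in WT, and to 175, 183 and 43.98 and 4249, 1995 and 2921 CPM in DKO. The 5 mural and smooth muscle markers summed to 3249, 3845 and 3406 CPM at day 0, 904, 563 and 538 CPM at day 3 and 139, 42.4 and 37.2 CPM at day 6 in WT. The part of these transcripts in the steps was not tested.

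From day 6 to day 9 only Pnpla3 was called among the 6 members, in WT (1.37 ± 0.26, adjusted p = 0.00298) and in DKO (0.94 ± 0.29, adjusted p = 0.0479), with 8.8% and 6.05% of all genes called higher. The DKO call was close to the threshold. It was lost without any 1 of the 6 libraries compared (adjusted p between 0.104 and 0.151) but kept in a blocked fit of the 6 libraries of these 2 days (0.95, adjusted p = 2.54e-04), whose same-numbered libraries deviated together. In the same kind of fit of the WT libraries, Mgll (-0.34, adjusted p = 0.00255) and Abhd5 (-0.25, adjusted p = 0.00774) fell by less than 1.5-fold, and without the block their adjusted p-values were 0.326 and 0.195. In the blocked fit of the DKO libraries Mgll also fell by less than 1.5-fold (-0.29, adjusted p = 0.0268), and Abhd5 did not fall (0.05, adjusted p = 0.73). Without the block, the members other than Pnpla3, and other than Mgll and Abhd5 in WT, had log2 fold changes between -0.30 and 0.17, none of them called.

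**Figure D1:**
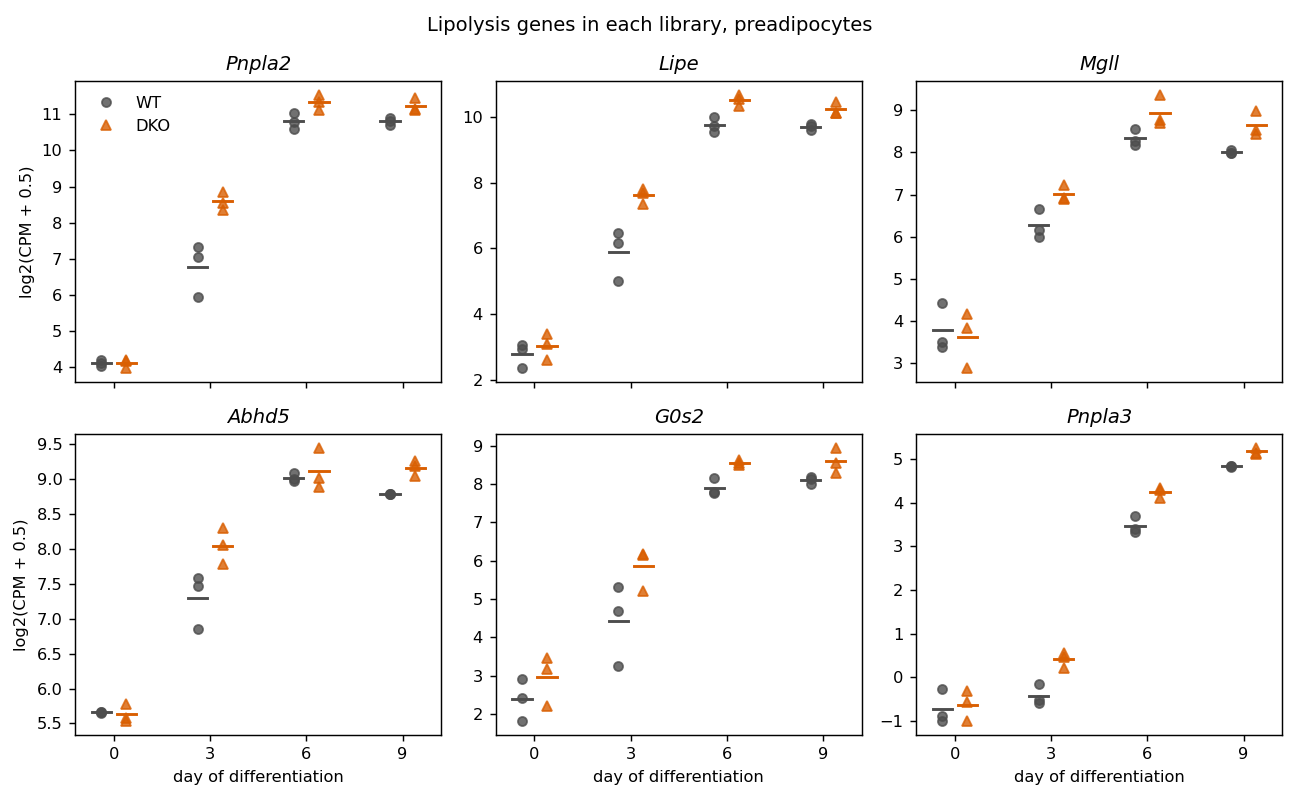
Level of each of the 6 lipolysis genes in each preadipocyte library, as log2(CPM + 0.5) against the day of differentiation, with WT as circles, DKO as triangles and short lines for the mean of 3 libraries. The members rise to day 6, Pnpla3 goes on rising to day 9, and at day 9 the 3 DKO libraries sit above the 3 WT libraries for all 6 genes.

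MEFs were followed to ask whether the same genes rose in a second cell type. Pnpla2 went from 26.4 ± 0.39 CPM at day 0 to 1286 ± 44.99 CPM at day 12 in WT, and Lipe from 9.84 ± 0.227 to 608 ± 22.7 CPM. Mgll (19.7 ± 1.90 to 197 ± 2.15 CPM), G0s2 (6.05 ± 1.74 to 134 ± 2.89 CPM) and Abhd5 (60.5 ± 0.927 to 353 ± 1.37 CPM) went the same way. Pnpla3 was counted with 1, 1 and 2 reads at day 0 and stood at 21.4 ± 0.622 CPM at day 12. All 6 members were called higher at day 4 than at day 0 in both genotypes, with 14.8% of all genes called higher in WT and 11.4% in DKO. For Lipe in WT this call (2.15 ± 0.79, adjusted p = 0.0421) rested on WT replicate 1 of day 4, without which the value was 0.78 (adjusted p = 0.337), and it was also lost without any 1 of the day 0 libraries (adjusted p = 0.0996 to 0.103) and without the filter on low counts (0.11).

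In the middle of the MEF time course the calls differed with single libraries left out. Lipe was at 97.4, 16.6 and 17.2 CPM in WT replicates 1 to 3 at day 4 and at 206, 33.3 and 215 CPM at day 8, and in DKO at 62.6, 38.4 and 181 and 484, 335 and 67.3 CPM. The highest WT library of day 4 thus exceeded the lowest of day 8, as in DKO. From day 4 to day 8, Pnpla3 was the only member called in WT (1.19 ± 0.27, adjusted p = 0.0436; 1.03% of all genes called higher), a call kept in the fits without WT replicate 1 of day 4 or WT replicate 2 of day 8 and lost without any 1 of the other 4 libraries (adjusted p 0.156 to 0.177). Without WT replicate 1 of day 4, 5 members were called, beside 9.15% of all genes called higher in that fit, and without WT replicate 2 of day 8, 4 were, beside 7.7%. In DKO no member was called at this step by edgeR's quasi-likelihood test, as no gene was (0%), although 4 members had an unadjusted p under 0.05 (6.68% of all genes, higher) and DESeq2 called 1. Leaving out DKO replicate 3 of day 8 gave 3 calls, beside 2.08% of all genes called higher. From day 8 to day 12 Pnpla3 was again the only member called, in WT (2.18 ± 0.26, adjusted p = 6.86e-05; 12.5% of all genes) and in DKO (1.89 ± 0.36, adjusted p = 0.00285; 14.5%). Without DKO replicate 1 of day 8 the count in DKO was 4, beside 12.5% of all genes. At this step all 3 WT libraries of day 12 lay above all 3 of day 8 for each member, where 33.1% of all genes did so. In DKO this held for 3 of 6 members, where 33.6% of all genes did, and Mgll, Abhd5 and G0s2 overlapped between the days. The medium changed from induction to insulin and T3 after 8 days, so time and medium cannot be told apart at this step.

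**Figure D2:**
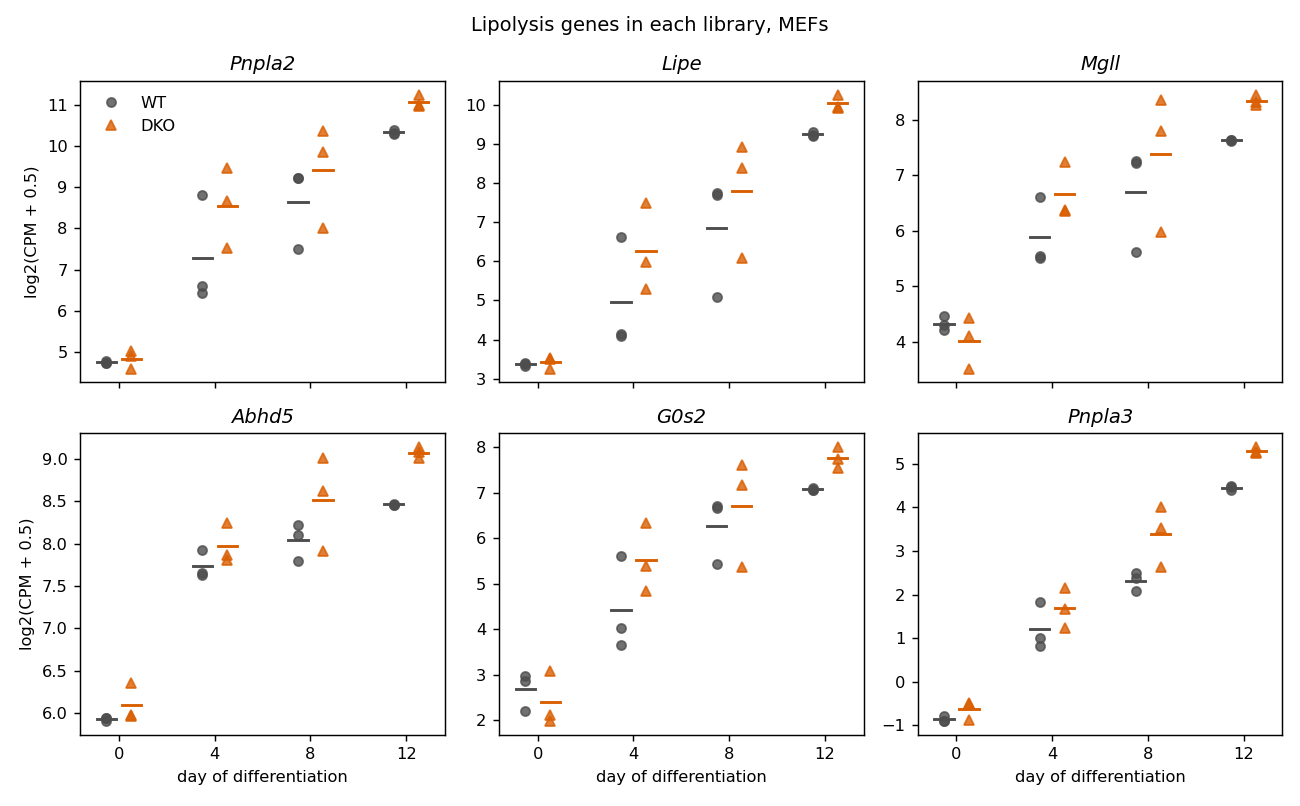
Level of each of the 6 lipolysis genes in each MEF library, as log2(CPM + 0.5) against the day of differentiation, with WT as circles, DKO as triangles and short lines for the mean of 3 libraries. The libraries of a group spread widely at days 4 and 8 and lie close together at day 12, where the DKO libraries sit above the WT libraries for all 6 genes.

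Levels were then compared between members, as CPM per kilobase of exon. In undifferentiated WT preadipocytes Abhd5 had the highest mean, 8.42 ± 0.0623 CPM per kilobase (SD), followed by G0s2 (5.72 ± 2.33) and Pnpla2 (5.52 ± 0.308), which did not differ beyond their spread, and by Mgll (2.77 ± 1.23), Lipe (1.11 ± 0.288) and Pnpla3 (0.0795 ± 0.114). In WT MEFs at day 0 Abhd5 also had the highest mean, at 10.2 ± 0.156 CPM per kilobase. After differentiation the order was another one. At day 9 in WT preadipocytes Pnpla2 stood at 597 ± 44.5, G0s2 at 317 ± 20.9, Lipe at 141 ± 9.49, Abhd5 at 73.7 ± 0.285, Mgll at 50.7 ± 1.15 and Pnpla3 at 18.1 ± 0.19 CPM per kilobase. The order was the same in DKO preadipocytes at day 9 and in both genotypes of MEFs at day 12, and in DKO preadipocytes at day 6 Mgll (98.9 ± 27.2) and Abhd5 (93.98 ± 19.8) were not separated beyond their spread. Exon lengths are the union over transcripts and not those in use, so these levels are approximate.

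The main comparison was DKO against WT at each day. Before differentiation the members did not show a difference that passed the test. At day 0, 0 of the 5 members tested were called by edgeR's quasi-likelihood test in preadipocytes (0.218% of all genes called) or in MEFs (0.102%), and DESeq2 called none either, with no member at an unadjusted p under 0.05 in either cell type (3.92% and 4.43% of all genes were, in the higher direction). Pnpla3, with 0 to 9 reads per library, did not pass the filter on low counts. Abhd5 in MEFs was the only member of the 2 cell types whose DKO libraries (62.6, 81.5 and 62.04 CPM) all lay above the WT libraries (61.2, 60.9 and 59.5 CPM), by a log2 fold change of 0.18 ± 0.12, adjusted p = 0.592, where 8.88% of all genes in MEFs and 7.39% in preadipocytes did the same. The summed adipocyte markers of MEFs already differed without overlap, at 933, 1093 and 910 CPM in WT and 1497, 2126 and 1914 CPM in DKO. In preadipocytes they overlapped, at 415, 150 and 348 CPM in WT and 222, 863 and 401 CPM in DKO. The part of this in the later differences was not tested.

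At day 3 the members stood higher in DKO preadipocytes, without a call. Pnpla2 was at 60.2, 159.8 and 131 CPM in the WT libraries and at 324, 464 and 375 CPM in the DKO libraries. Every DKO library lay above every WT library, and the log2 fold change was 1.74 ± 0.36, adjusted p = 0.141. Lipe was at 31.7, 88.6 and 70.8 CPM in WT and 162, 222 and 204 CPM in DKO (1.63 ± 0.37, adjusted p = 0.162). WT replicate 1 was the lowest library for both lipases. Mgll did not follow it, with WT replicate 1 the highest of 101, 70.9 and 63.8 CPM in WT against 120.4, 149 and 119 CPM in DKO (0.72 ± 0.19, adjusted p = 0.213). Abhd5 (0.74 ± 0.22, adjusted p = 0.247) and Pnpla3 (1.73 ± 0.42, adjusted p = 0.17, from 4 to 9 reads per WT library and 17 to 27 per DKO library) also did not overlap between the genotypes, whereas G0s2 (9.13, 25.3 and 39.05 CPM in WT, 36.7, 71.1 and 72.1 CPM in DKO, 1.30 ± 0.53, adjusted p = 0.407) did. Thus 5 of 6 members lay above WT without overlap, where 10.6% of all genes did. All 6 had an unadjusted p under 0.05 (7.42% of all genes, higher), and none was called by edgeR's quasi-likelihood test, in which 0.337% of all genes were called, 0.165% in the higher direction. DESeq2 called 4, and a single edgeR fit over the 4 days called 3 (Pnpla2, Lipe and Abhd5). The summed adipocyte markers moved with them, at 646, 2567 and 1819.5 CPM in WT and 3290.0, 4607 and 3999 CPM in DKO, and their part in the result was not tested.

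At day 6, 3 of 6 members were called higher in DKO preadipocytes, with 11.6% of all genes called and 5.03% called higher. They were the diglyceride lipase gene Lipe, the ATGL inhibitor gene G0s2 and Pnpla3. Lipe was at 748, 1023 and 848 CPM in WT and 1274, 1634 and 1504 CPM in DKO, with every DKO library above every WT library (log2 fold change 0.72 ± 0.14, adjusted p = 0.0118). G0s2 was at 218, 285 and 221 CPM in WT and 359, 393 and 374 CPM in DKO (0.60 ± 0.11, adjusted p = 0.0107), and Pnpla3 at 9.96, 12.5 and 9.48 and 19.6, 18.96 and 16.7 CPM (0.76 ± 0.13, adjusted p = 0.00732). Neither gene overlapped between the genotypes. For Pnpla2 the WT libraries held 1554, 2096 and 1772 CPM and the DKO libraries 2219, 2993 and 2584 CPM (0.49 ± 0.15, adjusted p = 0.0484), a difference under 1.5-fold, and for Mgll 290.2, 375 and 309 CPM and 433, 661 and 412 CPM (0.59 ± 0.18, adjusted p = 0.0528). Abhd5 was the member that did not separate the genotypes. It was at 498, 541 and 509 CPM in WT and 469.7, 694 and 516 CPM in DKO, with a log2 fold change of 0.08 ± 0.14, adjusted p = 0.711, which turned to -0.03 without TMM scaling and to -0.09 without DKO replicate 2. The other 5 members lay above WT without overlap, where 24.7% of all genes did.

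The day 6 calls depended on the fit. In a single fit of all 24 libraries none was called (adjusted p = 0.0572 for Lipe, 0.0656 for Pnpla3 and 0.261 for G0s2), with log2 fold changes of 0.75, 0.79 and 0.64. Without WT replicate 3 only Pnpla3 was called (2.56% of all genes called higher), without WT replicate 1 (3.33%) or DKO replicate 2 (4.71%) the count was 2, and without WT replicate 2 it was 4 (5.96%). The TMM factors were 1.016, 0.960 and 0.993 in WT and 0.946, 0.851 and 0.909 in DKO, which raised the DKO levels relative to WT. Scaled by the summed counts alone, G0s2 was under 1.5-fold higher in DKO. The adipocyte markers summed to 19562, 23685 and 20323 CPM in WT and 26160.4, 32124 and 28922 CPM in DKO, and 2 of the 9 tested (Slc2a4 and Retn) were called higher. The 7 macrophage and leukocyte markers summed to 5351, 8979 and 9031 CPM in WT against 4249, 1995 and 2921 CPM in DKO, and the 7 progenitor markers to 1306, 958 and 1059 against 616, 752 and 431 CPM. The 3 Schwann cell markers summed to 17.7, 15.1 and 14.9 CPM in WT and 11.6, 2.75 and 4.58 CPM in DKO. The part of these other transcripts in the result was not tested.

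By day 9 all 6 members lay above WT without overlap in DKO preadipocytes, where 22.2% of all genes did, and 0 of 6 were called by edgeR's quasi-likelihood test, with 1.24% of all genes called and 0.469% called higher. All 6 had an unadjusted p under 0.05 (14.2% of all genes, higher) and DESeq2 called Mgll. Pnpla2 was at 1821, 1659 and 1926 CPM in WT and 2224, 2284 and 2821 CPM in DKO (0.41 ± 0.12, adjusted p = 0.0887). The log2 fold changes of the other lipase genes were 0.51 ± 0.11, adjusted p = 0.0582 for Lipe and 0.63 ± 0.14, adjusted p = 0.0605 for Mgll. Abhd5 was now separated as well, with 439.8, 439.7 and 437 CPM in WT and 527, 608 and 577 CPM in DKO (0.35 ± 0.07, adjusted p = 0.0569). G0s2 was at 281, 256 and 291 CPM in WT and 371, 312 and 492 CPM in DKO (0.47 ± 0.16, adjusted p = 0.128). Pnpla3 was at 28.2, 27.7 and 28.02 CPM in WT and 34.1, 34.8 and 37.6 CPM in DKO (0.31 ± 0.07, adjusted p = 0.0556), with both groups in narrow ranges. The adipocyte markers summed to 25124, 25942 and 26426 CPM in WT and 33228, 32239.6 and 39135 CPM in DKO, without overlap, and 0 of the 9 tested were called. The macrophage and leukocyte markers summed to 2822, 5852 and 4827 CPM in WT and 2723, 1302 and 1667 CPM in DKO, and the Schwann cell markers to 16.1, 13.6 and 12.7 and 8.36, 3.06 and 2.81 CPM, both lower in DKO without overlap. The part of these transcripts in the members' values was not tested.

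Whether the genotype difference itself changed between days was tested as an interaction. No member passed an adjusted p of 0.05 by edgeR in any of the 6 tests, in which between 0 and 0.319% of all genes did. From day 0 to day 3 of preadipocytes the change of the DKO difference was 1.70 ± 0.41 (log2, SE) for Pnpla2 (adjusted p = 0.413; 0.0125% of all genes called), 1.35 ± 0.51 for Lipe and 0.74 ± 0.25 for Abhd5. From day 3 to day 6 its sign was negative for all 6, with -1.25 ± 0.41 for Pnpla2 (adjusted p = 0.206), -0.99 ± 0.34 for Pnpla3, -0.92 ± 0.42 for Lipe and -0.14 ± 0.29 for Mgll. In each of these 2 tests 3 members had an unadjusted p under 0.05, and DESeq2 called 1, Pnpla2, with adjusted p = 0.00658 and 0.0426. In MEFs no member reached an unadjusted p of 0.05 in the 3 interactions, and DESeq2 called none.

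In differentiating MEFs the spread at days 4 and 8 covered the genotype difference. At day 4 Pnpla2 was at 448, 85.1 and 97.3 CPM in WT and 404, 185 and 704 CPM in DKO (1.04 ± 0.78, adjusted p = 0.836), so that WT replicate 1 lay within the DKO range. The other 5 members had log2 fold changes from 0.24 (Abhd5) to 1.10 (Lipe), all 6 overlapped (5.58% of all genes lay above WT without overlap), and 0 of 6 were called (0.0905% of all genes called). None had an unadjusted p under 0.05 (2.83% of all genes, higher) and DESeq2 called none. Without WT replicate 1 the count stayed at 0. At day 8 Pnpla2 was at 593, 182 and 601 CPM in WT and 1309.9, 931 and 255 CPM in DKO (0.83 ± 0.68, adjusted p = 0.781), with WT replicate 2 and DKO replicate 3 far below the others of their group. Pnpla3 alone did not overlap (4.72, 3.72 and 5.10 CPM in WT, 15.5, 10.96 and 5.66 CPM in DKO, 1.22 ± 0.37, adjusted p = 0.486), where 8.24% of all genes lay above, and 0 of 6 members were called (0.0595% of all genes), with Pnpla3 the only one at an unadjusted p under 0.05 (3.86% of all genes, higher) and none called by DESeq2. When WT replicate 2 and DKO replicate 3 were left out together, a choice made after seeing their adipocyte markers, all 6 were called with 2 libraries per group, with log2 fold changes of 0.66 (Abhd5) to 1.40 (Pnpla3) and adjusted p-values of 0.00532 to 0.0473, in a fit that called 609 of 15217 genes. These libraries were also the lowest of their group for each member, so leaving them out narrowed the spread of the values tested. Leaving out either library alone gave 0 calls.

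At day 12, when the libraries of a group lay close together, all 6 members were called higher in DKO MEFs, with 7.98% of all genes called and 3.92% called higher. Pnpla2 was at 1338, 1256 and 1265 CPM in WT and 2033, 2428 and 2025 CPM in DKO, a log2 fold change of 0.73 ± 0.07, adjusted p = 3.75e-06. Lipe was at 634, 599 and 591 and 961, 1224 and 989 CPM (0.78 ± 0.09, adjusted p = 3.97e-04), and Mgll at 199, 198 and 195 and 306, 349 and 317 CPM (0.69 ± 0.05, adjusted p = 3.02e-08). The genes of all 3 enzymatic steps were thus higher in every DKO library. Of the ATGL partners, Abhd5 was at 352, 352 and 354 CPM in WT and 514, 564 and 540.2 CPM in DKO (0.59 ± 0.04, adjusted p = 4.53e-08), and G0s2 at 132, 138 and 133 and 184, 256 and 212 CPM (0.67 ± 0.12, adjusted p = 0.00896). Pnpla3 differed most, with 21.5, 20.7 and 21.9 CPM in WT and 37.4, 41.2 and 38.3 CPM in DKO (0.84 ± 0.07, adjusted p = 1.27e-07). All 6 lay above WT without overlap, where 26.5% of all genes did.

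The WT libraries of day 12 had a coefficient of variation of 0.39% to 3.74% for the 5 members other than Pnpla3, against 4.61% to 16.5% in DKO and 14.7% to 67.7% in WT at day 8. A single fit over the 24 MEF libraries gave nearly the same log2 fold changes (0.61 to 0.87) with adjusted p-values of 0.0848 to 0.619 and called none. Without DKO replicate 2 the calls of Abhd5 and G0s2 were lost because their folds fell under 1.5. The TMM factors were 0.913, 0.923 and 0.921 in WT and 0.875, 0.867 and 0.866 in DKO. Scaled by the summed counts alone, Abhd5 was under 1.5-fold higher in DKO. The adipocyte markers summed to 17014, 16648 and 16977 CPM in WT and 25556, 26633 and 25348 CPM in DKO, with 7 of 10 called higher, and the macrophage and leukocyte markers to 4436, 4384 and 4428 and 3222, 2799.8 and 3208 CPM. The progenitor markers summed to 2300.1, 2272 and 2222 CPM in WT and 1798, 1614 and 1811 CPM in DKO, and the Schwann cell markers to 81.1, 75.00 and 76.00 and 36.5, 49.7 and 34.6 CPM. Endothelial, mural and smooth muscle, and skeletal muscle markers also summed lower in DKO without overlap. The 6 epithelial markers summed higher, at 4.58, 4.10 and 3.74 CPM in WT and 10.6, 7.21 and 9.56 CPM in DKO. The part of these transcripts in the result was not tested.

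**Figure D3:**
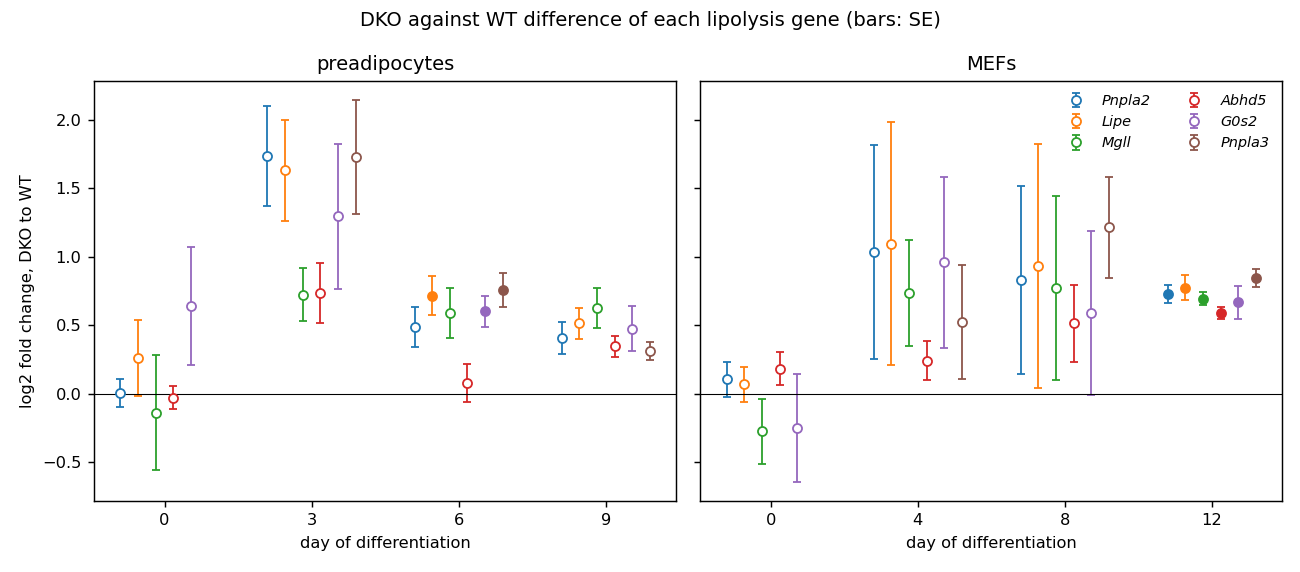
Log2 fold change of DKO to WT for each of the 6 lipolysis genes at each day, in preadipocytes (left) and MEFs (right), with bars for the SE and filled points for called genes (adjusted p under 0.05 and fold of at least 1.5). All points from day 3 or 4 on are above 0, with filled points at day 6 of preadipocytes (3 genes) and at day 12 of MEFs (6 genes).

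Ratios of counts between members were taken within each library, so that sequencing depth cancels, and were compared between genotypes only. With 3 libraries per group the smallest two-sided p of the exact permutation test is 0.1, so that no ratio could pass 0.05. The log2 ratio of Abhd5 to Pnpla2 counts was lower in DKO at 2 of the 4 days of preadipocytes, without overlap. At day 3 it was 0.94, 0.14 and 0.54 in the WT preadipocyte libraries and -0.57, -0.56 and -0.51 in the DKO libraries, a difference of -1.08 (exact permutation p = 0.1). All 3 WT values were above 0 and all 3 DKO values below it, but counts are not divided by exon length, so 0 does not mark equal levels. Per kilobase of exon, Pnpla2 had the higher mean at day 3 in WT (38.8 against 26.96 CPM) and in DKO (128 against 44.6 CPM). At day 6 it was -1.64, -1.95 and -1.80 in WT and -2.24, -2.11 and -2.32 in DKO, a difference of -0.43 (exact permutation p = 0.1). At day 9 the genotypes overlapped (difference -0.06), as they did in MEFs at all 4 days.

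For the inhibitor the genotypes mostly overlapped. The log2 ratio of G0s2 to Pnpla2 was -2.90 ± 0.09 (SD, n = 3) in WT and -2.78 ± 0.15 in DKO preadipocytes at day 6, and -3.26 ± 0.07 and -3.32 ± 0.12 in MEFs at day 12, with overlap in both. Across the 8 comparisons it separated the genotypes only at day 8 of MEFs (difference -0.30, exact permutation p = 0.1), and without WT replicate 2 that difference was -0.15. Lipe relative to Pnpla2 was slightly higher in DKO preadipocytes at day 6 (difference 0.23) and day 9 (0.11), both without overlap (exact permutation p = 0.1). Mgll relative to Lipe was lower in DKO at day 3 (difference -0.999, exact permutation p = 0.1), where the WT libraries were at 1.68, -0.32 and -0.15 and WT replicate 1 stood apart. Without that library the difference was -0.36. The 32 comparisons of the 4 ratios were not adjusted for their number, since none could pass.

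**Figure D4:**
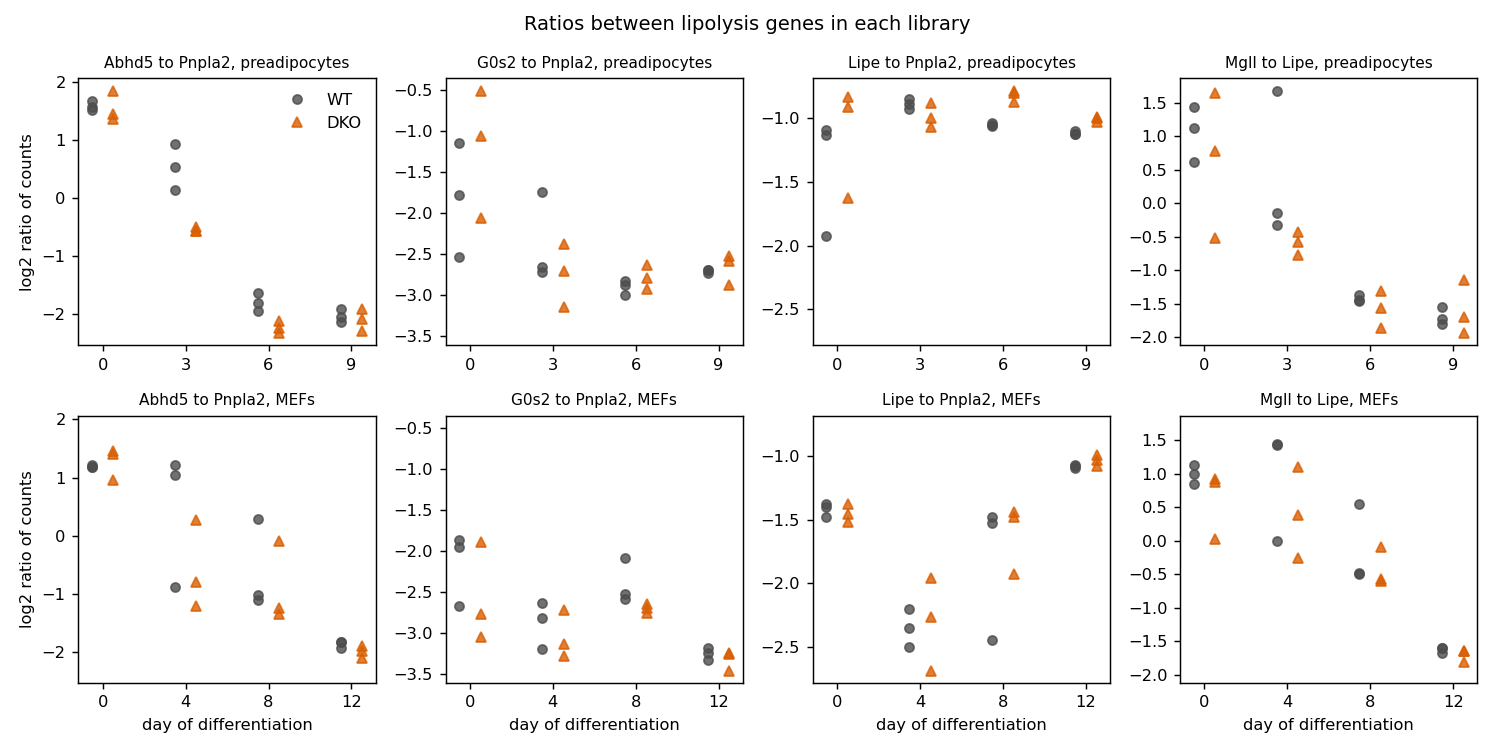
Log2 ratio of counts between lipolysis genes in each library against the day of differentiation, for preadipocytes (top) and MEFs (bottom), with WT as circles and DKO as triangles. For Abhd5 to Pnpla2, the 3 DKO preadipocyte libraries lie below the 3 WT libraries at days 3 and 6.

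Since adipocyte markers also differed between the genotypes, each member was set against the mean log2 level of the 10 adipocyte markers of its library, which holds none of the members. At day 6 of preadipocytes Pnpla2 stood 2.88 ± 0.04 (SD, n = 3) above this mean in WT and 2.87 ± 0.09 above it in DKO, on the log2 scale, and at day 9 2.18 ± 0.12 and 2.22 ± 0.08 above it. The genotype differences of -0.01 and 0.04 were within the spread of the libraries. Lipe was higher in DKO relative to the markers, by 0.22 at day 6, 0.15 at day 9 and 0.15 at day 12 of MEFs, each without overlap. Abhd5 was lower relative to the markers at day 6 (-0.44, no overlap). Pnpla3 was higher by 0.24 at day 6 of preadipocytes and 0.21 at day 12 of MEFs, and Pnpla2 by 0.10 at day 12 of MEFs, also without overlap. For each of these the exact permutation p was 0.1. Leaving out 1 library lowered the Lipe difference to 0.0935 at day 9 (WT replicate 2) and 0.0959 at day 12 (DKO replicate 2), and that of Pnpla3 to 0.13 at day 6 (DKO replicate 1). In the other 17 of the 24 differences computed, both Pnpla2 values of preadipocytes included, the p was above 0.1.

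**Figure D5:**
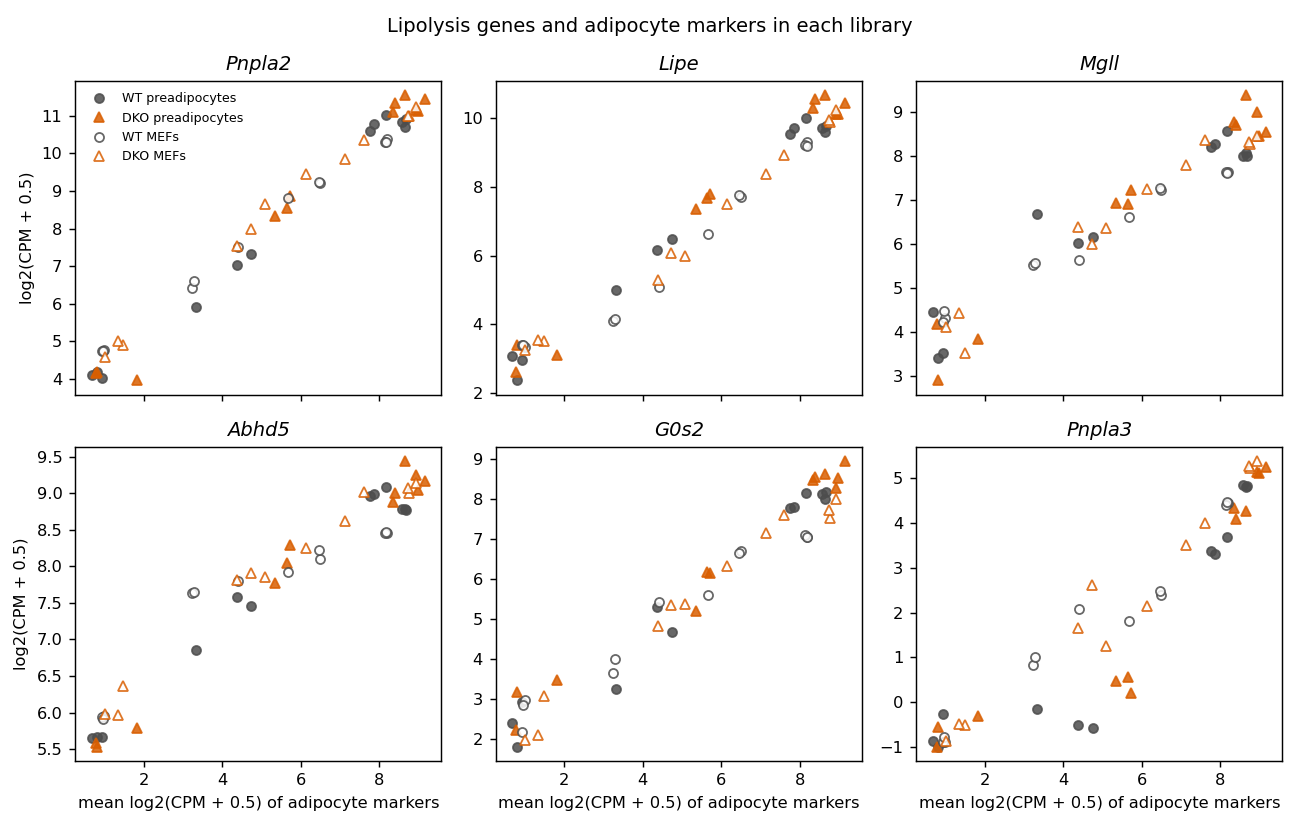
Level of each lipolysis gene, as log2(CPM + 0.5), against the mean log2(CPM + 0.5) of 10 adipocyte markers in the same library, for all 48 libraries, with WT as circles, DKO as triangles, filled symbols for preadipocytes and open symbols for MEFs. Across the time course each lipolysis gene mostly rises with the marker mean, in both genotypes and cell types. In WT preadipocytes Mgll and Abhd5 are lower at day 9 than at day 6, although the marker mean is higher. The MEF libraries of days 4 and 8 overlap in marker mean.

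The rest of the pathway was read from lists of its parts, whose counts stand beside shares of all genes called higher of 5.03% at day 6 and 0.469% at day 9 of preadipocytes and 3.92% at day 12 of MEFs. Of the genes that lead from hormone receptors to protein kinase A, 1 of 19 tested in DKO preadipocytes at day 6 were called higher, a share near that of all genes, and none lower, with a median log2 fold change of 0.02 against -0.013 over all tested genes. The gene was the adenylyl cyclase Adcy9 (0.69 ± 0.14, adjusted p = 0.0142). At day 12 of MEFs 4 of 19 were called higher (median 0.10 against 0.0015), namely the adenylyl cyclase Adcy5 (0.74 ± 0.06, adjusted p = 2.15e-06), the kinase subunit Prkar2b (0.78 ± 0.08, adjusted p = 1.57e-04), the beta-3 adrenergic receptor Adrb3 (0.78 ± 0.11, adjusted p = 0.00162) and the thyrotropin receptor Tshr (0.92 ± 0.13, adjusted p = 0.00174). Among the 18 genes that restrain lipolysis, calls went both ways. In preadipocytes at day 6, 3 of 18 tested were called higher, the adenosine receptor Adora1 (1.59 ± 0.18, adjusted p = 0.00383), the kinase Akt2 (0.63 ± 0.09, adjusted p = 0.00474) and the phosphodiesterase Pde3b (0.61 ± 0.11, adjusted p = 0.0098), and 1 lower (6.53% of all genes were), the prostaglandin receptor Ptger3 (-1.84 ± 0.24, adjusted p = 0.00395). In MEFs at day 12, Pde3b (0.78 ± 0.09, adjusted p = 2.16e-04) and Adora1 (1.24 ± 0.16, adjusted p = 0.0041) were called higher, and the alpha-2 adrenergic receptor Adra2a (-1.03 ± 0.17, adjusted p = 1.83e-04) and the neuropeptide Y receptor Npy1r (-0.73 ± 0.15, adjusted p = 0.00131) lower, where 4.05% of all genes were. The list medians were -0.06 and 0.07.

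Some genes of the lipid droplet, where the members act, were also higher. In preadipocytes at day 6, 5 of 11 droplet protein genes tested were called higher and none lower (median 0.67), with Cidea (2.72 ± 0.37, adjusted p = 0.00884), Plin5, which holds ATGL and CGI-58 at the droplet (1.16 ± 0.15, adjusted p = 0.00455), Plin4 (0.81 ± 0.14, adjusted p = 0.00868) and Cideb (1.18 ± 0.24, adjusted p = 0.0125) at the smallest p-values. In MEFs at day 12, 5 of 11 were called higher (median 0.68), including Plin1, whose protein holds CGI-58 until it is phosphorylated (0.68 ± 0.08, adjusted p = 2.71e-04), and Cidec (0.69 ± 0.05, adjusted p = 6.12e-08). Next come genes that handle the released fatty acids and glycerol. In preadipocytes at day 6, 3 of 10 were called higher and none lower (median 0.51), the muscle-type carnitine palmitoyltransferase Cpt1b (1.99 ± 0.17, adjusted p = 0.00169), the fatty acid binding protein Fabp5 (0.77 ± 0.15, adjusted p = 0.0106) and the glycerol channel Aqp7 (0.82 ± 0.16, adjusted p = 0.0122). In MEFs at day 12, 7 of 10 were called higher and none lower (median 0.72), with Fabp5 (0.86 ± 0.04, adjusted p = 5.84e-10), the transporter Slc27a1 (0.89 ± 0.05, adjusted p = 1.36e-08) and the acyl-CoA synthetase Acsl1 (0.77 ± 0.05, adjusted p = 2.38e-08) at the smallest p-values.

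Of other lipases and hydrolases, 2 of 16 tested were called higher at day 6, the carboxylesterase Ces1d (0.89 ± 0.18, adjusted p = 0.0161) and the monoglyceride hydrolase Abhd6 (0.62 ± 0.14, adjusted p = 0.0165), and 3 of 16 at day 12 of MEFs, Ces1d (0.88 ± 0.04, adjusted p = 3.36e-10), Ces1f (0.94 ± 0.07, adjusted p = 4.96e-08) and the endothelial lipase gene Lipg (1.17 ± 0.13, adjusted p = 9.44e-06). At day 9 of preadipocytes, where no member was called, 3 of 16 were, namely Lipg (1.48 ± 0.19, adjusted p = 0.0235), Ces1f (0.66 ± 0.10, adjusted p = 0.0321) and Ces1d (0.59 ± 0.09, adjusted p = 0.0391). Calls in the opposite pathway, triglyceride synthesis, were in the same direction. Called higher were 5 of 11 tested genes in preadipocytes at day 6 (median 0.58), led by the acyltransferase Dgat2 (1.31 ± 0.12, adjusted p = 0.00154) and the phosphatidate phosphatase Lpin1 (0.90 ± 0.13, adjusted p = 0.00457), and 2 of 11 in MEFs at day 12 (median 0.34), Lpin1 (0.67 ± 0.04, adjusted p = 1.42e-08) and Dgat1 (0.64 ± 0.04, adjusted p = 2.27e-08). None of the synthesis genes was called lower. Lpin1 was also the only gene of these lists called at day 3 of preadipocytes (0.95 ± 0.11, adjusted p = 0.0304). Plin1, Cidec, Fabp4 and Lpl are in both a pathway list and the adipocyte marker list.

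Over the 24 libraries of each cell type, the genes most like each member were sought by Pearson correlation of log2(CPM + 0.5), averaged over the 2 cell types, among 10616 genes with a mean of at least 5 CPM in both. The levels differ strongly between days, so the values mainly describe how alike the time courses are. Pnpla2 was most like the amino acid transporter gene Slc36a2 (mean r = 0.994), Car5b and Fitm2 (both 0.992). Lipe was most like Dgat1 (0.995), the fatty acid elongase Elovl3 (0.993) and Agpat2 (0.992). Mgll was most like Ephx2, Pde3b and Acsl1 (0.979 to 0.983), and Abhd5 like Acss3, the pyruvate carboxylase gene Pcx and Fitm2 (0.987 to 0.988). G0s2 was most like Car5b (0.988), Pnpla2 itself (0.985) and Pex11a (0.985). Pnpla3 was most like the acetyl-CoA synthetase Acss2 (0.984), Chpt1 (0.983) and Pdhb (0.982).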

How the data were processed

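The values deposited by the authors are RSEM expected counts per gene, 1 table per cell type, which were rounded to whole numbers here. The libraries were of polyA RNA per the labels and of total RNA per the study's methods, read as 50 bp pairs. The submitters' processing notes name bcl2fastq 2.17, Cutadapt 1.18, STAR 2.7.0f and RSEM 1.3.0 with mm10.

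Groups were taken from the labels. Each DKO against WT comparison was fitted at its own day, the steps between days over the 12 libraries of a genotype and the interactions over the 12 libraries of the 2 days, with edgeR 4.0.16 in R 4.3.3 (TMM, filterByExpr, glmQLFit and glmQLFTest) over all genes that passed the filter, with Benjamini-Hochberg adjustment. A gene was called at an adjusted p under 0.05 and a fold of at least 1.5, except in the interactions, which had no fold threshold. Ratios, with 0.5 added to each count, were compared by two-sided exact permutation tests. DESeq2 1.42.0 and limma 3.58.1 (voom) were alternatives. The fits were run on simulated data with known changes, as a check of the code. There every gene had the same spread setting and no library stood apart, so this does not bear on the members' calls. Replicates are biological per the methods. Over all genes, no 2 libraries of a group agreed within sampling noise (chi-square per degree of freedom 2.11 to 154 over 48 pairs). The pairs of WT MEFs at day 12 were among the closest, at 3.42, 3.18 and 2.14. This check was not made for single members, some of which varied little within a group. Abhd5 had a coefficient of variation of 0.39% in WT MEFs at day 12, at 7140 to 9684 reads per library. In WT preadipocytes at day 9 it was 0.387% for Abhd5 and 1.05% for Pnpla3, the latter at 540 to 636 reads. The p-values use this spread between libraries, and whether it measures the spread between separate cultures was not tested.

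The members and the gene lists were chosen with earlier results of these data known. All 6 members are described, and of each list at most 4 called genes with the smallest p-values were named. Deviations from group means correlated for all 3 replicate numbers only between days 6 and 9 of WT preadipocytes (r = 0.13 to 0.45) and within DKO preadipocytes. There this held between days 0 and 3 (0.41 to 0.56) and between days 6 and 9 (0.37 to 0.46). Between the genotypes of preadipocytes, replicates 1 and 3 correlated at day 0 (0.29 and 0.52) and day 3 (0.45 and 0.54), and replicate 2 did not (-0.27 and 0.04). Replicate number was not a shared batch in the labels.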

Additional observations from a re-analysis of the deposited data

How the results depend on the processing

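Over 171 results, 1823 alternative values kept their direction and their side of the threshold, stayed within the spread or were counts that changed little. Counts of called members that changed by no more than 1.5 times are among these, so such a count may have lost or gained a call. Of the other values, 43 passed the threshold newly, 38 no longer passed it, 34 counts or values moved and 24 changed sign. Unless a cause is named, the cause was not tested.

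DESeq2 called 4 members at day 3 of preadipocytes where edgeR called 0, 1 at day 9 (against 0), 2 in WT MEFs from day 4 to day 8 and 2 from day 8 to day 12 (against 1 each), 1 and 3 in DKO MEFs at these steps (against 0 and 1), and 1 in each of the first 2 interactions of preadipocytes (against 0). A single fit over all days called 3 members at day 3 of preadipocytes, 0 at day 6 (against 3) and 0 at day 12 of MEFs (against 6). Without a filter on low counts 1 member was called at day 9 of preadipocytes. The Pnpla3 call of DKO preadipocytes from day 6 to day 9 was lost (0 members called) with library size only, without the filter and with the replicate block over 4 days. The replicate block gave 2 members at day 3 of preadipocytes (against 0) and 2 in WT MEFs from day 8 to day 12 (against 1). At day 3 of preadipocytes the deviations of same-numbered libraries correlated for replicates 1 and 3 (r = 0.45 and 0.54) but not for replicate 2 (0.04). Between days 8 and 12 of WT MEFs they did not correlate (r = -0.02 to 0.005). The block changed no other count of members by over 1.5 times. Leaving out both MEF libraries of day 8 with the lowest adipocyte markers, chosen after seeing the data, gave 6 called members (against 0).

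Leaving out 1 library gave 1 to 4 called members at day 6 of preadipocytes, 0 to 1 at day 9 (1 without DKO replicate 2), 4 to 6 at day 12 of MEFs, 0 to 5 in WT MEFs from day 4 to day 8, 0 to 3 in DKO MEFs at that step, 1 to 4 in DKO MEFs from day 8 to day 12, and 0 in DKO preadipocytes from day 6 to day 9.

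Values that changed sign came from results that were not called. At day 0 of preadipocytes the log2 fold change of Pnpla2 was -0.00936 with library size only, -0.0312 with limma-voom and -0.037 to 0.0777 without 1 library, that of Mgll -0.43 to 0.29 and that of Abhd5 -0.11 to 0.0196. At day 6 Abhd5 was -0.0263 with library size only and -0.0855 to 0.18 without 1 library. From day 6 to day 9 the ranges without 1 library were -0.106 to 0.113 for Pnpla2 and -0.174 to 0.0572 for Lipe in WT preadipocytes, and -0.21 to 0.0271 for Pnpla2, -0.138 to 0.195 for G0s2 and -0.0804 to 0.214 for Abhd5 (-0.00563 with library size only) in DKO preadipocytes. The first interaction of Pnpla3 ranged from -0.92 to 2.39. Pnpla2 relative to adipocyte markers ranged from -0.042 to 0.0402 at day 6 and -0.0218 to 0.0879 at day 9 of preadipocytes.

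Over all genes, the single fit over all days called 209 at day 12 of MEFs (against 1222) and 1534 at day 6 of preadipocytes (against 1699), and DESeq2 called 408 at day 3 (against 51) and 827 at day 9 of preadipocytes (against 183). With 0 to 9 reads, Pnpla3 at day 0 was too shallow for a fold.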
